A study of Drosophila melanogaster with 8 samples.

Results

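Glutathione S-transferases (Gst genes) and UDP-glycosyltransferases (Ugt genes) encode the conjugating enzymes of insect detoxification. The genes were taken by symbol, as every name made of Gst, a class letter D, E, O, S, T or Z and a number, or of Ugt and a number. This gave 52 genes, 35 Gst and 17 Ugt, among the 16727 gene symbols of the deposited tables.

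The data are poly(A) RNA sequencing of Drosophila melanogaster heads in 8 libraries, 2 for each of 4 groups. Wild-type flies of the strain labelled w1118 and flies of the strain labelled vriΔ679, a mutant of the clock gene vrille (vri), were kept at 25 °C in 12 h of light and 12 h of dark. After 3 days of entrainment both genotypes were collected on day 4 at zeitgeber time (ZT) 2, in the light, and at ZT14, in the dark. The labels give no sex, age or number of heads and no other allele, and they do not say that replicates came from separate cultures, so p-values measure the spread between these samples, which may be technical. Vri is a transcriptional repressor of the circadian clock and its RNA is known to peak in the early night. The comparison of genotypes at each time asks which genes differ in the mutant, and the comparison of times asks which genes differ between early day and early night.

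A glutathione S-transferase joins the tripeptide glutathione to reactive, often toxic compounds, or uses it to reduce peroxides, and so makes them soluble. A UDP-glycosyltransferase does the equivalent with a sugar taken from a UDP-sugar, in insects mostly glucose. In flies the delta (GstD) and epsilon (GstE) classes are insect expansions known for insecticide and plant toxin metabolism, while the omega, sigma, theta and zeta classes are shared with other animals. Several Ugt enzymes of insect antennae are thought to clear odorants.

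Mapped reads, taken from the ratio of coverage to FPKM, numbered 49300000 to 65400000 per library, rounded. White, an eye pigment transporter gene, was at 2.12 to 5.99 FPKM in the wild-type libraries and at 0.0338 to 0.0819 in the vriΔ679 libraries. The name w1118 denotes a white mutant stock, so the higher white level in the wild type goes against that label. Strain background and the vri allele cannot be told apart here. In the wild type, 95.5 to 99.6% of the vri FPKM lay on the 3 transcripts with the most downstream start, of 5 listed. In 3 of the 4 mutant libraries that share was 0.275 to 1.00%, but in the library labelled vriΔ679 ZT14 replicate 2 it was 74.1%, with 30.1 FPKM on those transcripts. That library goes against its label on this measure, so results that rest on it are given with and without it. All levels below are FPKM (fragments per kilobase of transcript, scaled to read depth) summed per gene and scaled between libraries, and are therefore per length.

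Of the 52 genes, 39 reached 1 FPKM in at least 2 libraries and were tested, 31 Gst and 8 Ugt. The other 13 were GstD4, GstD6, GstD7, GstE10, Ugt36Ba, Ugt36Bb, Ugt37a1, Ugt37b1, Ugt37c1, Ugt86Dc, Ugt86Dg, Ugt86Dh and Ugt86Dj. None of the 13 exceeded 0.735 FPKM in any library, the level of GstE10 in vriΔ679 ZT14 replicate 1. Ugt86Dj was listed at 0 in all 4 wild-type libraries and stayed at or below the level of 3 reads in 7 of 8 libraries. GstD5 was tested on 3 libraries above 1 FPKM, 1 of wild type at ZT2 and both of vriΔ679 at ZT14, so a difference between groups was partly built into its passing.

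The head expressed these genes very unevenly. Averaged over the 8 libraries, GstD1, an enzyme known for DDT metabolism and as a reporter of oxidative stress, stood at 428 FPKM, and GstE12 at 304 FPKM. GstE9 (80.0 FPKM), GstO2 (79.6), GstE14 (79.1), GstE6 (78.8), GstT4 (72.3) and GstE3 (69.8) came next. The most abundant gene of each further class was GstS1 at 44.2 FPKM, GstZ2 at 27.7, Ugt35b at 44.1, Ugt36Bc at 35.3, Ugt86Da at 31.7, Ugt58Fa at 3.58 and Ugt37a1 at 0.226. The Gst genes held 90.8% of the summed FPKM of the 52 genes, the GstE class 42.5% and the GstD class 28.4%.

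Summed over all 52 genes, wild type gave 1935 and 1673 FPKM at ZT2 and 1473 and 1653 FPKM at ZT14. The vriΔ679 libraries gave 2108 and 1745 FPKM at ZT2 and 2045 and 1533 FPKM at ZT14. The genotypes overlapped at both times, as did the 2 times in vriΔ679, while in wild type the ZT2 libraries lay just above those of ZT14. Ugt35, the sum of Ugt35a and Ugt35b, was the class whose sum moved most with time as a ratio in both genotypes, from 93.7 and 72.5 FPKM at ZT2 to 22.1 and 25.1 FPKM at ZT14 in wild type and from 102 and 87.4 to 51.9 and 38.3 FPKM in vriΔ679. The GstZ sum was 29.3 and 28.9 FPKM in wild type at ZT2 against 55.3 and 49.4 FPKM in vriΔ679, and 19.3 and 19.5 against 33.6 and 29.5 FPKM at ZT14. These sums were not tested.

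**Figure D1:**
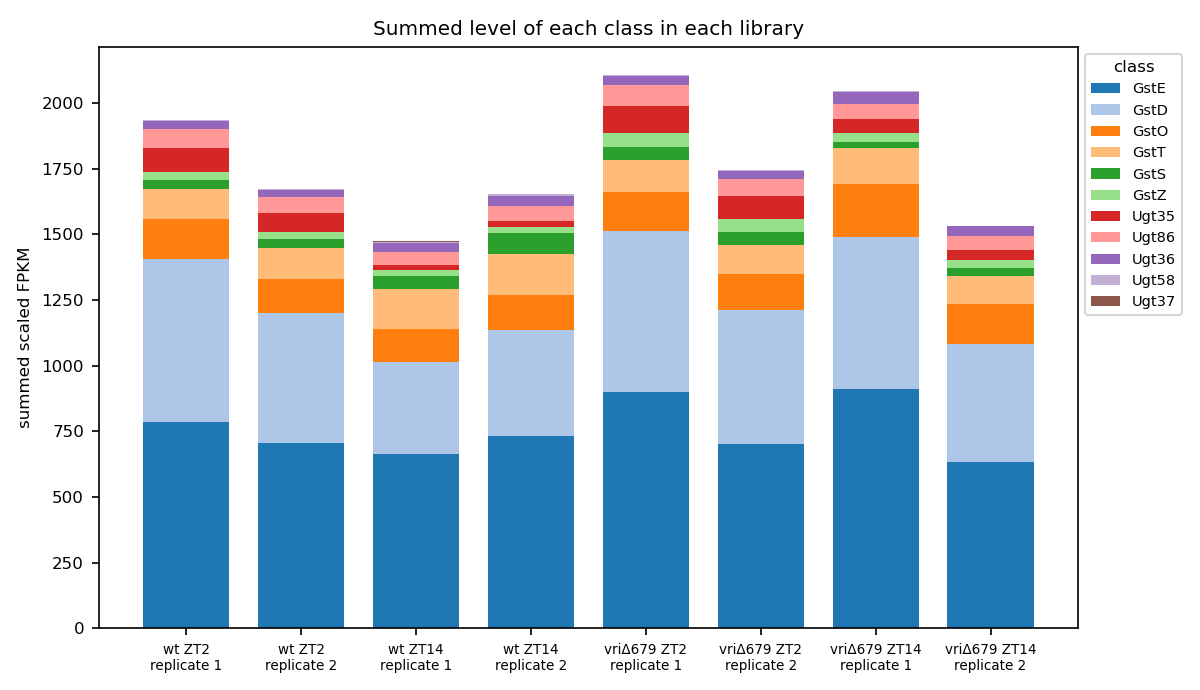
Summed scaled FPKM (vertical axis, from 0) of the members of each class in each of the 8 libraries, stacked by class. The total runs from 1473 FPKM in wild type (wt) ZT14 replicate 1 to 2108 FPKM in vriΔ679 ZT2 replicate 1, with GstE and GstD the widest segments and Ugt35 narrow at ZT14.

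Replicates also differed in these genes together. Replicate 1 was the higher library for 33 of the 39 tested genes in wild type at ZT2, 33 in vriΔ679 at ZT2 and 34 in vriΔ679 at ZT14, but for 9 in wild type at ZT14. Over all tested genes the corresponding shares were 52.5%, 54.3%, 56.4% and 47.9%. The median gap between replicates of these genes on the log2 scale was 0.18, 0.17, 0.33 and 0.14, in the same order of groups.

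The genes lie in 7 clusters with gaps of at most 30 kb, which hold 41 of the 52, and 11 stand alone. Coordinates are those of the deposited tables, on dm6. The GstE cluster on chromosome arm 2R (18396638 to 18409835) holds 10 genes in 13.2 kb, GstE10 and GstE1 to GstE9, in that order. The GstD cluster on 3R (12364776 to 12385624) holds all 11 GstD genes in 20.8 kb. Another on 3R (11126597 to 11177910) holds Ugt35a, Ugt35b and the 8 Ugt86D genes in 51.3 kb. Neighbours in these clusters are close paralogs, and how reads of 75 nt that match more than one of them were divided is not given in the sources used here, so levels of single cluster genes carry that uncertainty. Exons of GstT2 overlap CG12926 by 223 nt, those of GstO2 overlap se by 61 nt and those of GstE9 overlap imd by 40 nt, each on the opposite strand. No strand setting for counting is given in the sources used here, so reads of these pairs cannot be told apart with certainty.

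At ZT2 the mutant had more RNA of 5 Gst genes and less of none. GstE4 differed most: it stood at 6.46 and 5.89 FPKM in wild type and at 64.0 and 51.7 FPKM in vriΔ679, 9.37 times the wild-type mean. GstE4 lies within the GstE cluster on 2R (18403248 to 18404086) and encodes an epsilon class transferase. Its log2 difference (vriΔ679 minus wild type, on log2 of FPKM + 0.5, as in all differences below) was 3.12 (SE 0.335, adjusted p = 0.00534, limma), the 28th largest of 10122 genes. Its level in vriΔ679 at ZT2 was above every other library of the series, and the remaining 6 libraries lay between 1.36 and 6.46 FPKM.

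GstD8 and GstD11, neighbours at one end of the GstD cluster, were likewise highest in vriΔ679 at ZT2, at low levels. GstD8 was at 1.24 and 0.991 FPKM in wild type and at 4.18 and 3.38 FPKM in vriΔ679 at ZT2. Its log2 difference was 1.40 (SE 0.153, adjusted p = 0.00557, limma). GstD11 was at 2.22 and 1.76 FPKM in wild type and at 6.29 and 5.47 FPKM in the mutant, a log2 difference of 1.36 (SE 0.179, adjusted p = 0.0112, limma). For both genes the 2 mutant libraries at ZT2 were the highest of all 8.

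GstE5 and GstZ2 were also higher at ZT2, and both differed at ZT14 too. GstZ2 is a zeta class gene, a class known in other animals for maleylacetoacetate isomerase activity in tyrosine breakdown, and lies beside GstZ1 on 3R (9456815 to 9460652). It was at 23.1 and 23.9 FPKM in wild type and at 49.3 and 43.3 FPKM in vriΔ679, a log2 difference of 0.96 (SE 0.118, adjusted p = 0.00908, limma). GstE5, the neighbour of GstE4, was at 4.39 and 4.72 FPKM in wild type and at 9.03 and 8.75 FPKM in vriΔ679, a log2 difference of 0.89 (SE 0.132, adjusted p = 0.0174, limma). Neither gene's groups overlapped.

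Thus 5 of the 39 tested genes passed at ZT2, all higher in the mutant, where 2.88% of all 10122 tested genes passed in either direction, 1.88% higher and 1.01% lower. The median log2 difference of the 39 genes was 0.11, against a median of -0.0046 over all tested genes. Over classes these were 2 of 8 GstD, 2 of 13 GstE and 1 of 2 GstZ genes, and 0 of 8 Ugt genes passed. No Ugt gene exceeded a log2 difference of 0.65, that of Ugt86De.

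With 2 libraries a group, single libraries decided some of these calls. GstE4 passed whichever of the 8 libraries was left out (adjusted p at most 0.0482). GstD8 did not pass without wild type ZT2 replicate 2 (adjusted p = 0.0545, limma). GstZ2 did not pass without wild type ZT2 replicate 1 (adjusted p = 0.0855), wild type ZT2 replicate 2 (0.0790) or vriΔ679 ZT2 replicate 1 (0.0690), all by limma. GstD11 and GstE5 each failed without any 1 of the 4 ZT2 libraries, with adjusted p (limma) of 0.0506 to 0.0919 and 0.105 to 0.138. The count of 5 therefore fell to 1 or 2 without either wild type ZT2 library, to 2 without vriΔ679 ZT2 replicate 1 and to 3 without vriΔ679 ZT2 replicate 2.

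Summed antenna markers, like these 5 Gst genes, were highest in vriΔ679 at ZT2. GstE5 and GstZ2 were also lowest in wild type at ZT14, as the sum was. So was GstD11 by its mean (1.78 FPKM), though its libraries there overlapped those of other groups. GstD8 and GstE4 did not follow the sum in the other groups. In wild type GstD8 was at 1.24 and 0.991 FPKM at ZT2 and at 1.00 and 1.06 FPKM at ZT14. At ZT14 GstE4 was at 3.92 and 2.47 FPKM in wild type and at 3.20 and 1.36 FPKM in vriΔ679. The summed level of 6 antenna markers was 2166 to 2664 FPKM in vriΔ679 at ZT2, 1069 to 1343 in wild type at ZT2, 639 to 645 in wild type at ZT14 and 1115 to 1688 in vriΔ679 at ZT14. Orco, the odorant co-receptor, was at 24.9 and 16.4 FPKM in vriΔ679 at ZT2 against 4.06 and 3.58 in wild type, and at 2.42 to 3.10 FPKM in the 4 libraries of ZT14. Orco, Obp28a and Obp83b, 3 of the 6, were higher at ZT2 (Orco log2 difference 2.27, SE 0.215, adjusted p = 0.00327, limma), and 1 to 5 were with a library left out, Orco in each case. In bulk heads a change in the amount of a tissue and a change in RNA per cell cannot be told apart, and the part of antennal RNA in the 5 Gst differences was not tested.

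**Figure D2:**
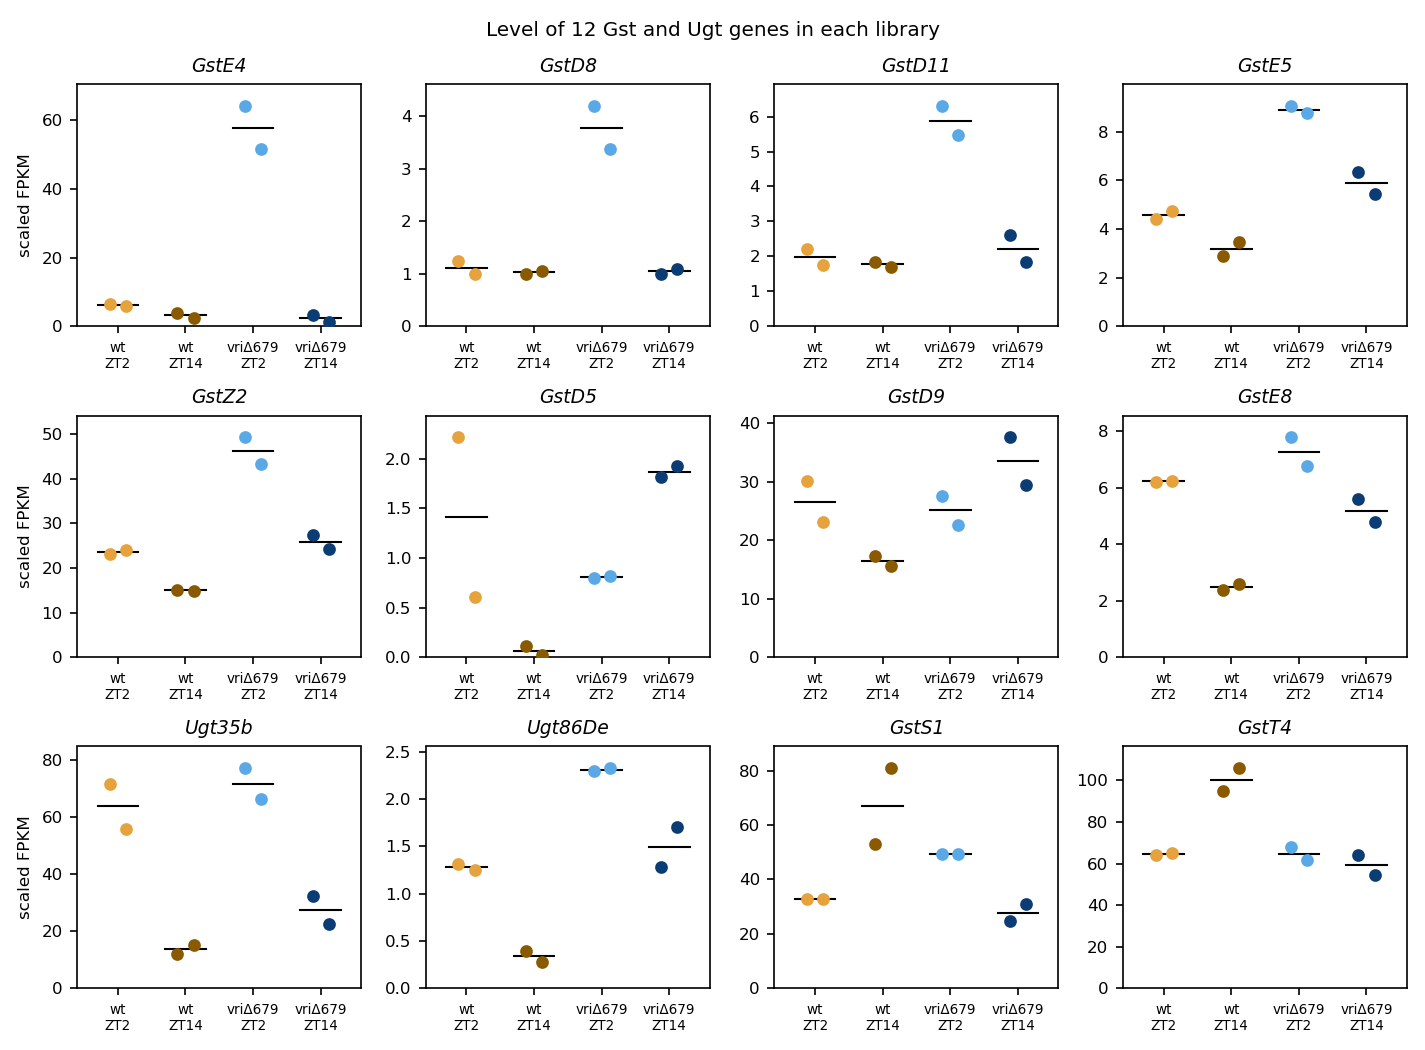
Scaled FPKM (vertical axes, from 0, one scale per gene) of 12 Gst and Ugt genes in wild type (wt) and vriΔ679 at ZT2 and ZT14; points are the 2 libraries of a group and bars their mean. GstE4, GstD8 and GstD11 are highest in vriΔ679 at ZT2, GstD9, GstE8, Ugt35b and Ugt86De are lowest in wild type at ZT14, and GstS1 and GstT4 are highest in wild type at ZT14.

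At ZT14, in the early night, more of these genes differed. In the mutant 13 genes were higher and 4 lower, 17 of 39, where 22.3% of all tested genes passed, 9.53% higher and 12.8% lower. The median log2 difference of the 39 genes was 0.36, against -0.013 over all tested genes, and 29 of the 39 differences were above 0. The division of all calls into higher and lower rests on the scaling: 42.7% were higher here, 56.2% without rescaling and 48.0% with library totals set equal. The split of the member calls was 15 higher and 4 lower without rescaling, and 15 higher and 5 lower with equal totals.

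In the GstD class 4 of 8 tested genes were higher and none lower, and all 8 differences were above 0 (7 of 8 with equal totals). GstD9 was at 17.2 and 15.7 FPKM in wild type and at 37.6 and 29.4 FPKM in vriΔ679, a log2 difference of 0.99 (SE 0.188, adjusted p = 0.0136, limma). GstD10, the next gene on 3R, was at 2.22 and 2.27 FPKM in wild type and at 4.62 and 4.75 FPKM in vriΔ679 (log2 difference 0.92, SE 0.165, adjusted p = 0.0112, limma). For both genes wild type at ZT14 was the lowest of the 4 groups and overlapped none of the others.

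GstD2, known for activity on isothiocyanates, was at 7.94 and 10.6 FPKM in wild type and at 25.0 and 14.6 FPKM in vriΔ679 (log2 difference 1.02, SE 0.255, adjusted p = 0.0321, limma). The 2 mutant libraries differed more from each other than the lower one did from wild type. GstD5 was at 0.113 and 0.0214 FPKM in wild type, where 3 reads correspond to 0.0563 to 0.0698 FPKM, and at 1.81 and 1.92 FPKM in vriΔ679. Its fitted log2 difference of 2.07 (SE 0.376, adjusted p = 0.0117, limma) depends on the added 0.5 FPKM, since 1 of the wild-type libraries lay below 3 reads. It was also partly built into the filter, which GstD5 passed with the help of both vriΔ679 ZT14 libraries. GstD1, the most abundant member, was at 301 and 349 FPKM in wild type and at 473 and 369 FPKM in vriΔ679, groups that did not overlap but whose log2 difference of 0.37 did not pass (SE 0.199, adjusted p = 0.217, limma).

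In the GstE class 4 of 13 tested genes were higher and 1 lower. The 4 higher genes, GstE5, GstE6, GstE7 and GstE8, are consecutive in the cluster. GstE6 was at 46.9 and 56.6 FPKM in wild type and at 118 and 75.5 FPKM in vriΔ679 (log2 difference 0.87, SE 0.235, adjusted p = 0.0401, limma). GstE7 was at 4.64 and 5.96 FPKM against 14.4 and 10.4 FPKM (log2 difference 1.15, SE 0.221, adjusted p = 0.0144, limma). GstE8 was at 2.39 and 2.59 FPKM against 5.6 and 4.78 FPKM (log2 difference 0.93, SE 0.128, adjusted p = 0.00435, limma), and GstE5 at 2.87 and 3.45 FPKM against 6.35 and 5.44 FPKM (0.81, SE 0.132, adjusted p = 0.00798, limma).

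None of these GstE groups overlapped. The flanking genes of the same cluster did not pass. GstE4 was at 3.92 and 2.47 FPKM in wild type and at 3.20 and 1.36 FPKM in vriΔ679, and GstE9 at 45.5 and 48.9 against 87.0 and 49.9 FPKM. GstE14, known as noppera-bo for its need in ecdysteroid synthesis and located alone on 2R (13239729 to 13241013), was the lower gene, at 114 and 126 FPKM in wild type and at 89.1 and 59.2 FPKM in vriΔ679. Its log2 difference was -0.72 (SE 0.195, adjusted p = 0.0413, limma). GstE12, the most abundant of the class, was at 287 and 301 FPKM against 405 and 286 FPKM, which overlapped.

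**Figure D3:**
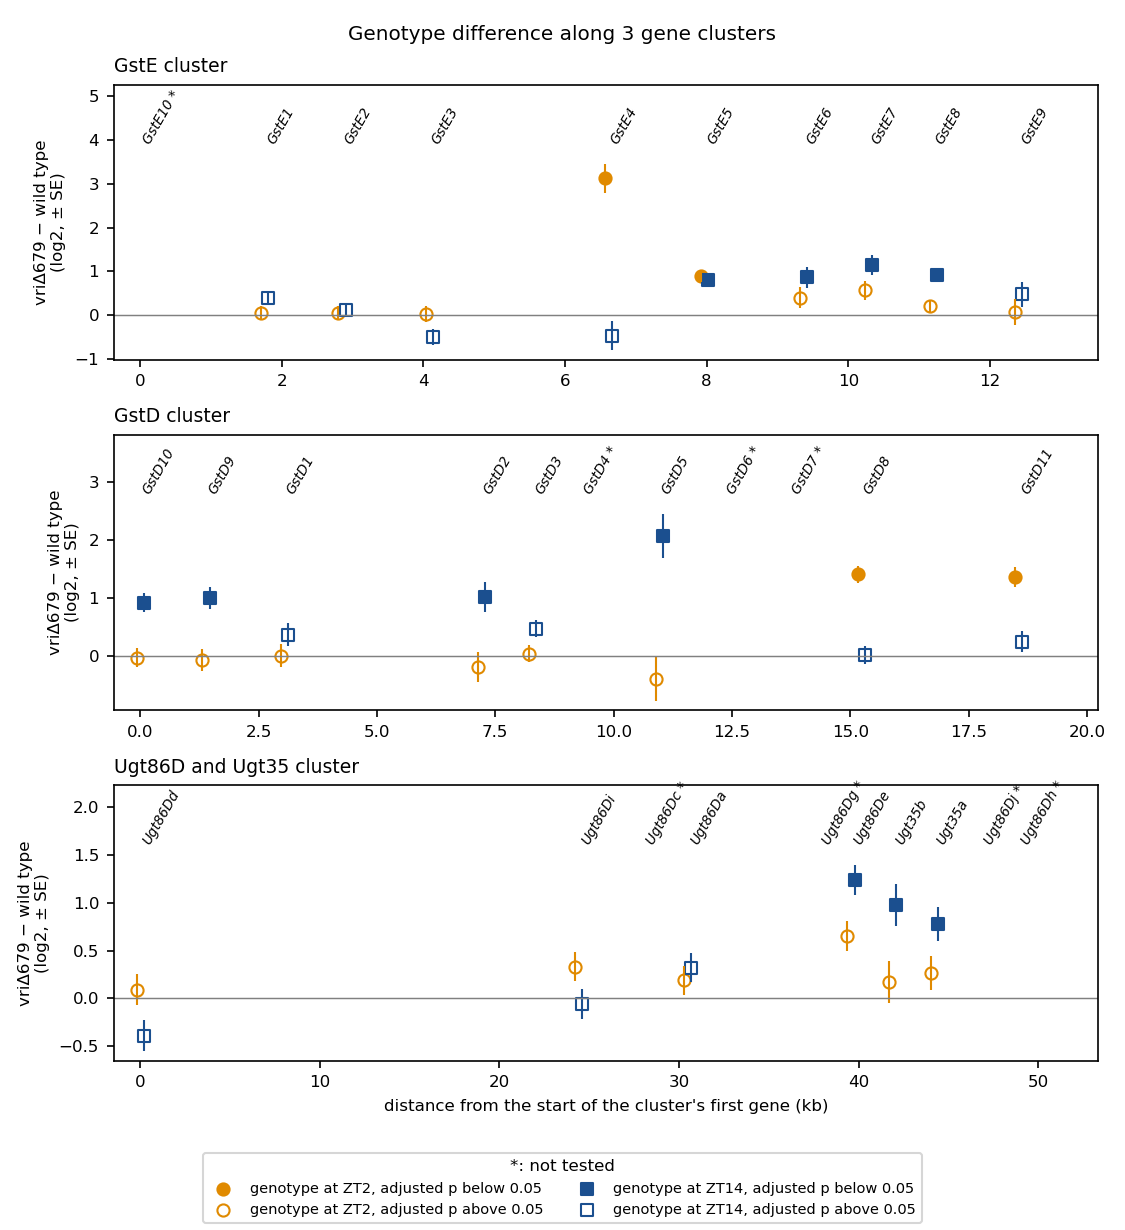
Genotype difference (vriΔ679 minus wild type, log2 of FPKM + 0.5, with its standard error) at ZT2 (circles) and ZT14 (squares) for genes of 3 clusters, by distance in kb from the start of the first gene; filled symbols have adjusted p below 0.05 and starred genes were not tested. GstE4 stands at 3.12 at ZT2 while GstE5 to GstE8 lie between 0.81 and 1.15 at ZT14, and GstD8 and GstD11 differ at ZT2 while GstD10, GstD9, GstD2 and GstD5 differ at ZT14.

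Outside the delta and epsilon classes, GstS1 was among the genes below wild type. GstS1 is the sigma class gene of the fly, abundant in flight muscle and active on lipid peroxidation products, on 2R (17093246 to 17098306). It was at 52.9 and 80.8 FPKM in wild type and at 24.7 and 30.8 FPKM in vriΔ679, 0.416 times the wild-type mean, with a log2 difference of -1.23 (SE 0.207, adjusted p = 0.00885, limma). Of the muscle markers, Mhc was at 865 and 825 FPKM in wild type and at 348 and 446 FPKM in vriΔ679, and the summed level of 4 muscle markers was 1933 to 1971 FPKM against 994 to 1093 FPKM. Mhc and up, 2 of 3 tested muscle markers, were lower at ZT14, up not in fits without any 1 of the 4 wild-type libraries (adjusted p of Mhc at most 0.0477, limma). Act88F, the remaining tested one, was at 3.87 and 4.82 FPKM in wild type and at 6.20 and 4.65 FPKM in vriΔ679 (log2 difference 0.29, adjusted p = 0.395, limma). Fln, the fourth, was below 1 FPKM in every library. The part of muscle RNA in the GstS1 difference was not tested.

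The theta class held 1 higher and 1 lower gene. GstT4, on X (13404749 to 13409323), was at 95.0 and 106 FPKM in wild type and at 64.2 and 54.4 FPKM in vriΔ679, a log2 difference of -0.76 (SE 0.129, adjusted p = 0.00906, limma). GstT2 was at 15.0 and 15.7 FPKM against 24.4 and 19.8 FPKM, a log2 difference of 0.50 (SE 0.140, adjusted p = 0.0451, limma). GstZ2 was higher at this time as well, at 15.1 and 15.0 FPKM in wild type and at 27.4 and 24.2 FPKM in vriΔ679 (0.76, SE 0.118, adjusted p = 0.00662, limma). None of the 3 omega class genes passed: GstO2 was at 68.5 and 70.0 FPKM against 120.2 and 86.4 FPKM, with a log2 difference of 0.56 (SE 0.168, adjusted p = 0.0547, limma).

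Among the 8 tested Ugt genes 3 were higher and 1 lower, and the 3 are neighbours on 3R. Ugt35b, known from work on Drosophila antennae as strongly expressed there, was at 12.1 and 15.1 FPKM in wild type and at 32.5 and 22.6 FPKM in vriΔ679 (log2 difference 0.98, SE 0.218, adjusted p = 0.0227, limma). Ugt35a was at 9.98 and 10.0 FPKM against 19.4 and 15.7 FPKM (0.77, SE 0.178, adjusted p = 0.0252, limma). Ugt86De was at 0.399 and 0.282 FPKM against 1.29 and 1.70 FPKM, 4.39 times the wild-type mean (1.24, SE 0.157, adjusted p = 0.00329, limma). In all 3 genes the groups were apart, and wild type at ZT14 was the lowest group of the series.

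Ugt58Fa, alone on 2R (22641786 to 22643917), was the lower Ugt gene, at 4.69 and 6.12 FPKM in wild type and at 2.85 and 1.62 FPKM in vriΔ679. Its log2 difference was -1.14 (SE 0.230, adjusted p = 0.0163, limma). Both mutant groups lay below both wild-type groups in this gene. Ugt36Bc and Ugt86Da, the most abundant genes of their families, were at 33.9 and 36.4 against 46.8 and 38.0 FPKM and at 22.1 and 26.1 against 30.9 and 29.3 FPKM, with adjusted p of 0.226 and 0.163 (limma).

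Of the 17 calls at ZT14, those of GstE8, GstS1 and Ugt86De held whichever library was left out. GstE5 failed without wild type ZT14 replicate 1 (adjusted p = 0.0606, limma), and GstT4 (0.0769) and Ugt58Fa (0.110) failed without wild type ZT14 replicate 2. GstD10, GstD5, GstD9, GstE7 and GstZ2 failed without either wild type ZT14 library (adjusted p 0.0510 to 0.0954), and Ugt35a and Ugt35b failed without either of these or vriΔ679 ZT14 replicate 1 (0.0553 to 0.135). GstE14 failed without any of the 6 libraries other than those of vriΔ679 at ZT14 (0.0707 to 0.189). GstD2, GstE6 and GstT2 passed only when vriΔ679 ZT14 replicate 2 was the library left out or when none was (0.0551 to 0.201 otherwise, by limma as above). The count of 17 fell to 5 and 4 without replicate 1 and replicate 2 of wild type at ZT14, and to 7 when only the ZT14 libraries entered the fit, where GstD2, GstE5, GstE6, GstE14, GstT2, GstT4, GstZ2, Ugt35a, Ugt35b and Ugt58Fa did not pass. With no filter on low values GstD2, GstE6, GstE14 and GstT2 did not pass, and GstT2 did not without the trended, robust variance.

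Without vriΔ679 ZT14 replicate 2, the library with wild-type-like vri transcripts, 25 of the 39 genes passed, 21 higher and 4 lower, while 5188 of all tested genes passed. The 8 genes gained were all higher: GstD3, GstE1, GstE9, GstE11, GstO1, GstO2, GstZ1 and Ugt36Bc, with log2 differences of 0.41 to 0.95. With both libraries in the fit, GstE9 and GstE11 stood at 87.0 and 24.2 FPKM in replicate 1 and at 49.9 and 16.7 FPKM in replicate 2. Leaving out vriΔ679 ZT14 replicate 1 instead gave 13 calls, 8 higher and 5 lower.

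Fat body markers also differed at ZT14. The marker counts here stand against 22.3% of all tested genes that passed at ZT14 (9.53% higher, 12.8% lower) and 2.88% at ZT2. Of 7 markers 4 were lower in the mutant (3 with certain libraries left out), Lsp2, Fbp1, Fbp2 and Yp3, and the summed level of the 7 was 3609 to 7482 FPKM in wild type and 1734 to 2709 FPKM in vriΔ679. At ZT2 the sums overlapped, at 8458 to 13337 and 6767 to 10511 FPKM, and Fbp1 and Fbp2 were higher in the mutant (neither without either wild type ZT2 library, 1 of the 2 without either vriΔ679 ZT2 library). Of 9 photoreceptor markers 5 were higher at ZT14 (3 without either wild type ZT14 library), and of 4 glia markers 3 were lower (0 without either of these, 1 without any 1 of the ZT2 libraries and 2 without vriΔ679 ZT14 replicate 1). Antenna markers gave 1 higher, Obp19d, and 1 lower, Obp28a, at this time (neither without either wild type ZT14 library). Of 4 neuron markers none passed, with log2 differences of -1.31 to 0.15 and 3 of them below 0. More neuron markers, like more of all tested genes, passed without vriΔ679 ZT14 replicate 2. Malpighian tubule and germ line markers summed to at most 0.564 and 1.01 FPKM, with Uro listed at 0 in all libraries. Of 6 gut markers 4 stayed below 1 FPKM, with Jon65Aiv listed at 0, and Mal-A1 was lower at ZT14 (log2 difference -0.45, adjusted p = 0.0466, limma), a call that passed otherwise only without vriΔ679 ZT14 replicate 1. Hemocyte markers summed to 5.64 to 24.3 FPKM and the oenocyte marker found to 0.0232 to 5.38 FPKM, with no call. The part of these tissues in the Gst and Ugt differences was not tested.

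**Figure D4:**
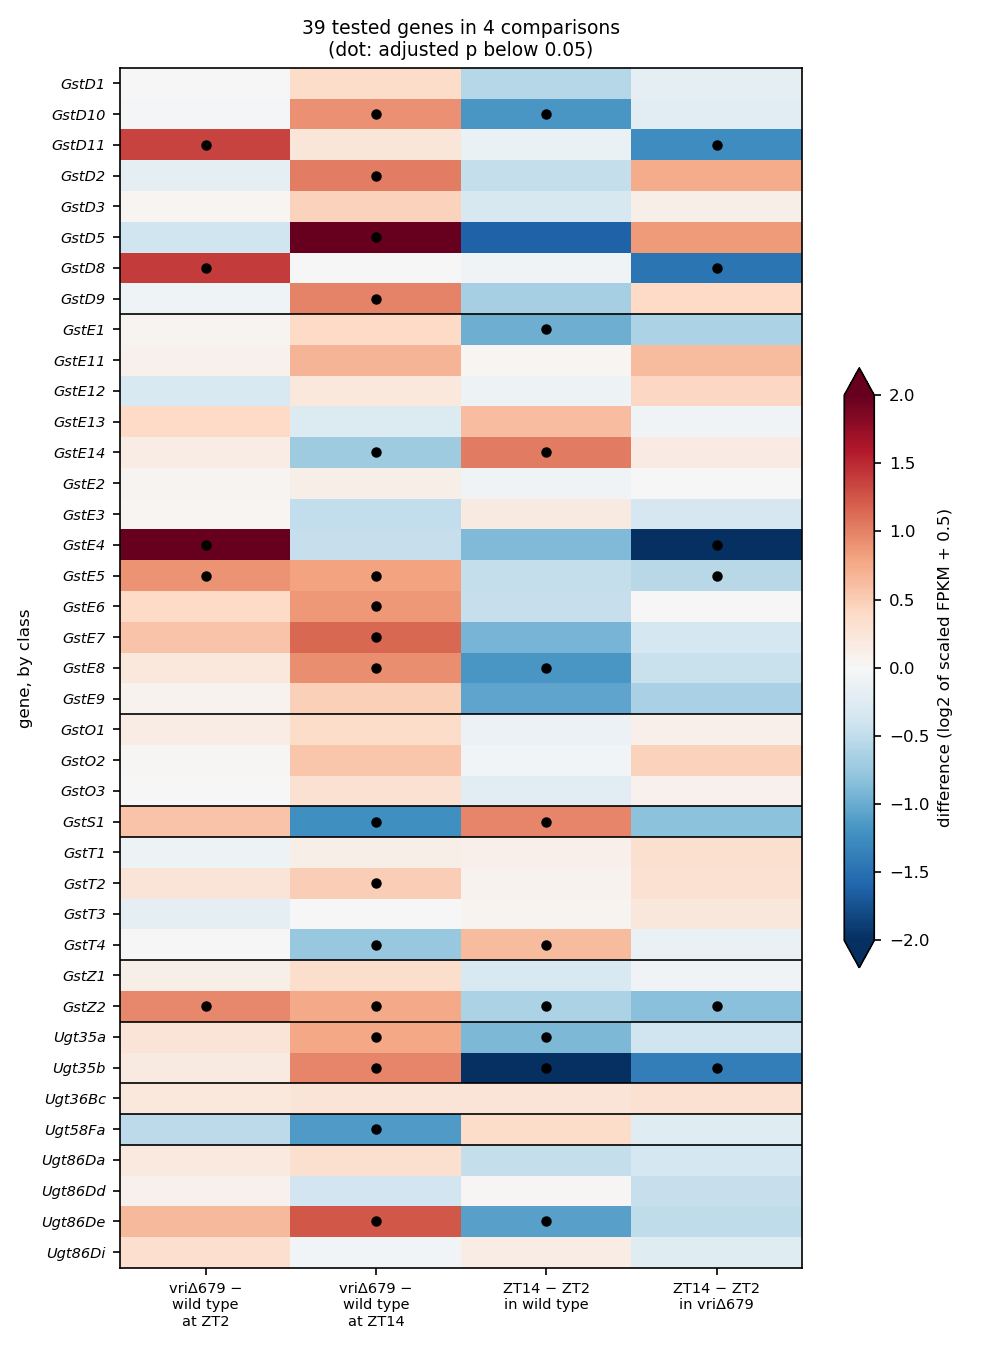
Log2 difference (colour, limited to 2 in either direction) of the 39 tested genes, in rows by class, in 4 comparisons, in columns; dots mark adjusted p below 0.05. The first column holds 5 dots, the second 17, the third 10 and the fourth 6, and GstZ2 has a dot in all 4.

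Between ZT2 and ZT14 in wild type, 7 genes fell and 3 rose, 10 of 39, where 6.63% of all tested genes passed (3.91% rose and 2.72% fell). The 39 genes had a median log2 difference (ZT14 minus ZT2) of -0.22, against 0.0024 over all tested genes. Ugt35b showed the largest fall, from 71.6 and 55.8 FPKM at ZT2 to 12.1 and 15.1 FPKM at ZT14, so the ZT2 mean was 4.68 times the ZT14 mean. The other Ugt genes that fell were Ugt86De, from 1.32 and 1.25 to 0.399 and 0.282 FPKM (log2 difference -1.09, SE 0.157, adjusted p = 0.0108, limma), and Ugt35a, from 22.1 and 16.6 to 9.98 and 10.0 FPKM (-0.91, SE 0.178, adjusted p = 0.0303, limma). The comparison of genotypes at ZT14 uses the same wild type ZT14 libraries.

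The Gst genes that fell came from 3 classes. GstE8 fell from 6.21 and 6.24 to 2.39 and 2.59 FPKM (log2 difference -1.17, SE 0.128, adjusted p = 0.00397, limma). GstD10 fell from 6.74 and 4.77 to 2.22 and 2.27 FPKM (-1.17, SE 0.165, adjusted p = 0.00987, limma). GstE1 fell from 41.4 and 37.8 to 18.8 and 20.9 FPKM (-0.98, SE 0.158, adjusted p = 0.0156, limma), and GstZ2 from 23.1 and 23.9 to 15.1 and 15.0 FPKM (-0.63, SE 0.118, adjusted p = 0.0260, limma).

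GstE14, GstS1 and GstT4 were higher in the early night. GstE14 rose from 55.0 and 61.2 to 114 and 126 FPKM (1.04, SE 0.195, adjusted p = 0.0264, limma). GstS1 rose from 33.0 in both libraries to 52.9 and 80.8 FPKM (0.98, SE 0.207, adjusted p = 0.0391, limma), and GstT4 from 64.3 and 65.2 to 95.0 and 106 FPKM (0.63, SE 0.129, adjusted p = 0.0351, limma). In each of the 10 genes the 2 groups did not overlap.

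GstE8 and Ugt35b passed whichever library was left out. GstE1 and GstZ2 failed without any 1 of the 4 wild-type libraries (adjusted p, limma, 0.0855 to 0.188). GstD10 failed without wild type ZT2 replicate 1 or either wild type ZT14 library (0.0546 to 0.0827), and Ugt86De without either wild type ZT2 library or wild type ZT14 replicate 2 (0.0740 to 0.0927). GstE14, GstT4 and Ugt35a failed without any 1 of the 4 wild-type libraries or of the vriΔ679 ZT2 libraries (0.0521 to 0.256), and GstS1 without those other than wild type ZT14 replicate 1 (0.0755 to 0.195). With no filter GstS1, GstT4 and Ugt35a did not pass, and GstS1 did not with equal totals, crossed replicate numbers or only the wild-type libraries in the fit. The count of 10 was 2 without wild type ZT2 replicate 1 or wild type ZT14 replicate 2, 4 without wild type ZT2 replicate 2 or wild type ZT14 replicate 1, 6 without either vriΔ679 ZT2 library and 16 without either vriΔ679 ZT14 library.

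With all 8 libraries, 6 genes fell in vriΔ679 between ZT2 and ZT14 and none rose. Of all tested genes 9.97% passed (3.59% rose and 6.38% fell). The median log2 difference of the 39 genes was -0.20, against -0.023 over all tested genes. GstE4 fell from 64.0 and 51.7 FPKM to 3.20 and 1.36 FPKM, so its ZT2 mean was 25.4 times its ZT14 mean. Its log2 difference was -4.47 (SE 0.335, adjusted p = 0.00119, limma), the 11th largest of the 10122 genes. In wild type the same gene went from 6.46 and 5.89 to 3.92 and 2.47 FPKM (-0.88, SE 0.335, adjusted p = 0.202, limma).

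GstD8 fell from 4.18 and 3.38 to 1.00 and 1.1 FPKM (-1.46, SE 0.153, adjusted p = 0.00381, limma) and GstD11 from 6.29 and 5.47 to 2.6 and 1.83 FPKM (-1.24, SE 0.179, adjusted p = 0.0102, limma). Both thus stood at ZT14 near their wild-type levels of 1.00 and 1.06 FPKM and of 1.85 and 1.70 FPKM. GstZ2 fell from 49.3 and 43.3 to 27.4 and 24.2 FPKM (-0.83, SE 0.118, adjusted p = 0.00982, limma) and GstE5 from 9.03 and 8.75 to 6.35 and 5.44 FPKM (-0.56, SE 0.132, adjusted p = 0.0445, limma). Ugt35b fell from 77.0 and 66.2 to 32.5 and 22.6 FPKM, a ZT2 mean of 2.6 times the ZT14 mean.

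GstE4 and GstD8 passed whichever library was left out. GstD11 (adjusted p = 0.0674, limma) and GstZ2 (0.0708) failed without vriΔ679 ZT2 replicate 1, Ugt35b failed without that library (0.0832) or vriΔ679 ZT2 replicate 2 (0.0597), and GstE5 failed without any of the 6 libraries other than vriΔ679 at ZT14 (0.0751 to 0.186). GstE5 also failed with a filter at 5 FPKM, with none and with the replicate block. The count of 6 was 2 (GstD8 and GstE4) when only the vriΔ679 libraries entered the fit, and it fell without vriΔ679 ZT2 replicate 1. It grew without vriΔ679 ZT14 replicate 2, but so did the number of all tested genes that passed. The growth is therefore not particular to these genes. Genes were added in both directions there, so the absence of rises did not hold without that library. It also did not hold without either wild type ZT2 library. The log2 differences of GstD2 and GstO2 without vriΔ679 ZT14 replicate 2 were 1.12 and 0.71, and those of GstS1 and Ugt86De were -0.98 and -0.65. Of the 7 fat body markers 6 fell in vriΔ679 between ZT2 and ZT14 (median log2 difference -2.39), fewer with certain libraries left out. In wild type 3 rose, fewer without any 1 of the wild-type libraries, but 4 of the 7 differences were below 0 (median -0.54). The sum in wild type was 8458 to 13337 FPKM at ZT2 and 3609 to 7482 FPKM at ZT14. In vriΔ679 it was 6767 to 10511 and 1734 to 2709 FPKM. Of the 9 photoreceptor markers 4 rose in vriΔ679, a number that moved with the library left out, and none passed in wild type. Of all tested genes 3.91% rose and 2.72% fell in wild type, and 3.59% rose and 6.38% fell in vriΔ679. Of the 6 antenna markers 5 fell in vriΔ679 over the same interval (3 without vriΔ679 ZT2 replicate 1), Orco with a log2 difference of -2.68 (SE 0.215, adjusted p = 0.00143, limma). In wild type 1 of the 6 fell, Obp83b (0 without any 1 of the wild-type libraries, 3 without either vriΔ679 ZT14 library).

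**Figure D5:**
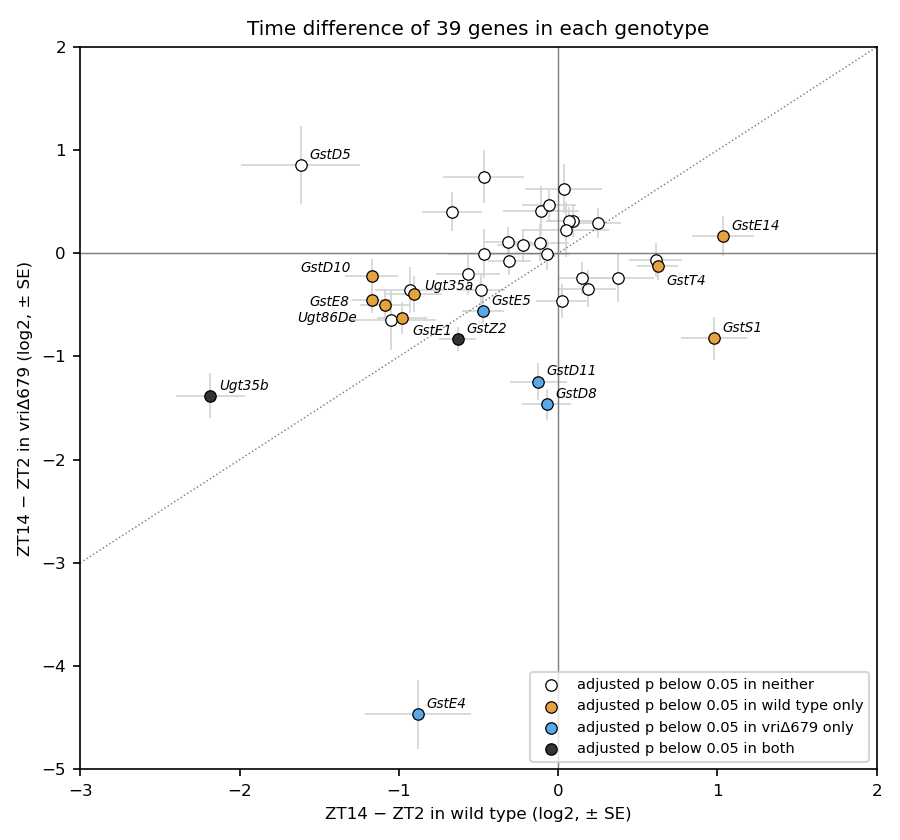
ZT14 minus ZT2 difference (log2 of FPKM + 0.5, with standard errors) of the 39 tested genes in wild type (horizontal axis) and in vriΔ679 (vertical axis), which share no library; the dotted line marks equal differences. Ugt35b and GstZ2 passed in both genotypes, GstE4 lies far below the line at -4.47 in vriΔ679, and GstS1 rose in wild type with a difference of -0.82 in vriΔ679.

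The genotype by time interaction tests whether the genotype difference at ZT14 departs from that at ZT2. It passed for 5 of the 39 genes, 1 upwards and 4 downwards, where 8.25% of all tested genes passed (2.37% upwards, 5.88% downwards). The member split was 3 upwards and 5 downwards without rescaling. With equal totals it was 2 and 7, a setting that moved the median interaction of all genes from -0.011 to -0.13. GstE4 (-3.59, SE 0.474, adjusted p = 0.00832), GstD8 (-1.39, SE 0.217, adjusted p = 0.0134) and GstD11 (-1.12, SE 0.253, adjusted p = 0.0427) had a larger mutant excess at ZT2 than at ZT14, all by limma. GstS1 was at 33.0 FPKM in both wild-type libraries and at 49.2 and 49.3 FPKM in vriΔ679 at ZT2, and its mutant level was below wild type at ZT14, an interaction of -1.80 (SE 0.293, adjusted p = 0.0154, limma).

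GstD5 was the upward gene, with an interaction of 2.47 (SE 0.532, adjusted p = 0.0362, limma). The gene entered the test through 1 wild type ZT2 library and both vriΔ679 ZT14 libraries, so this interaction was partly built into the filter. At ZT2 it was at 2.21 and 0.609 FPKM in wild type and at 0.798 and 0.823 FPKM in vriΔ679, so the groups overlapped there. The GstE4 interaction passed whichever library was left out. GstD8 failed without wild type ZT2 replicate 2 (adjusted p = 0.0654, limma), wild type ZT14 replicate 2 (0.0679) or vriΔ679 ZT2 replicate 1 (0.05004), and GstS1 failed without any 1 of the 4 ZT2 libraries (0.0559 to 0.0696). GstD11 failed without any library other than those of vriΔ679 at ZT14 (0.0917 to 0.155), and GstD5 without either wild type ZT14 library, either vriΔ679 ZT2 library or vriΔ679 ZT14 replicate 1 (0.0653 to 0.136). With no filter neither GstD11 nor GstD5 passed, and GstD11 failed with 0.1 FPKM added or a filter at 5 FPKM. The count of 5 and the number of all tested genes that passed both moved with the library left out. The mostly downward direction of the calls did not hold without vriΔ679 ZT14 replicate 2, the library with wild-type-like vri transcripts. It also did not hold without wild type ZT2 replicate 2. With all 8 libraries 26 of the 39 interactions were above 0 and 13 below, so the mostly downward calls do not describe the whole set. Without vriΔ679 ZT14 replicate 2 the interactions of GstD2, GstD9, GstE8 and GstO2 were 1.59, 1.25, 0.82 and 0.76. Those of GstT4, GstE14 and GstE13 were -0.64, -0.58 and -0.43 there.

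Ugt35b, Ugt35a and Ugt86De did not pass this test with all 8 libraries in the fit, and neither did any other Ugt gene. For Ugt35b the fall with time was 2.18 on the log2 scale in wild type and 1.38 in vriΔ679, and the interaction was 0.80 (SE 0.308, adjusted p = 0.155, limma). Without vriΔ679 ZT14 replicate 2, the library with wild-type-like vri transcripts, the Ugt35b interaction was 1.06. That of Ugt58Fa was -0.61 with all 8 libraries and -0.94 without vriΔ679 ZT14 replicate 1. The results for Ugt35b and Ugt58Fa therefore depend on single vriΔ679 ZT14 libraries, in fits where more of all tested genes passed too. GstE5 and GstZ2, higher in the mutant at both times, also did not pass it.

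Averaged over both times, 12 genes were higher in the mutant and 2 lower, 14 of 39, where 14.1% of all tested genes passed (5.87% higher and 8.2% lower). Of all calls 41.7% were higher, against 60.4% without rescaling and 56.2% with equal totals, where the member split was 14 higher and 1 lower, and 15 higher and 2 lower. The log2 differences of GstZ2 (0.86, SE 0.0835, adjusted p = 0.00207), GstE5 (0.85, SE 0.0931, adjusted p = 0.00302), Ugt86De (0.95, SE 0.111, adjusted p = 0.00388) and GstD8 (0.71, SE 0.108, adjusted p = 0.00930) passed by limma whichever library was left out. GstE4, GstD10, GstD11, GstE6, GstE7, GstE8, GstT2 and Ugt35a were the other higher genes, with differences of 0.38 to 1.33, and GstT4 (-0.38) and Ugt58Fa (-0.83) were lower. In GstE5, GstZ2, GstT2 and Ugt58Fa all 4 libraries of one genotype lay beyond all 4 of the other, and in the other 10 the ranges overlapped. The averages of GstD8 and GstE4 rest on ZT2. At ZT14 the GstD8 means were 1.03 FPKM in wild type and 1.04 in vriΔ679, and the GstE4 means 3.19 and 2.28 FPKM.

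The last 10 of these 14 calls rested on single libraries. GstD11 failed without wild type ZT14 replicate 2 (adjusted p = 0.0512, limma), GstE8 without either wild type ZT2 library (0.0510 and 0.0518) and GstE7 without either of these or wild type ZT14 replicate 1 (0.0594 to 0.0660). GstE4 failed without either wild type ZT2 library, wild type ZT14 replicate 2 or vriΔ679 ZT2 replicate 1 (0.0527 to 0.0614). Ugt58Fa failed without either library of wild type or vriΔ679 at ZT2 or without wild type ZT14 replicate 2 (0.0578 to 0.0811). GstE6, GstT2, GstT4, GstD10 and Ugt35a failed without 6 or 7 of the libraries (0.0504 to 0.177), and with no filter. GstT4 also failed without rescaling, GstD10 with equal totals or 1 FPKM added, GstD10 and GstT2 with a filter at 5 FPKM, and GstD10, GstE6 and GstT2 without the trended, robust variance. The count of 14 grew without vriΔ679 ZT14 replicate 2, as did the number of all tested genes that passed. It fell without any 1 of the other libraries.

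Genes that act around these enzymes were read from lists of symbols. The counts at ZT14 stand against the 22.3% of all tested genes that passed, and most shares are near it in lists this short, so they are given as a description. In glutathione synthesis and recycling, 1 of 7 tested genes was higher at ZT14, Gss2, which encodes a glutathione synthetase, at 22.3 and 20.4 FPKM in wild type and at 36.7 and 39.9 FPKM in vriΔ679 (0.83, SE 0.144, adjusted p = 0.00988, limma). It failed without either wild type ZT14 library (at most 0.0815). With all 8 libraries 5 of the 7 differences were above 0 and 2 below. More of the 7 passed without vriΔ679 ZT14 replicate 2, but so did far more of all tested genes, so the 22.3% does not apply to that fit. In the same 7 genes none passed at ZT2, and 1, Gclm of glutamate-cysteine ligase, named after its values were seen, rose with time in vriΔ679 (1.24, SE 0.156, adjusted p = 0.00677, limma), and TrxR-1 and TrxR-2 of the list were not analysed here. UDP-sugar supply, the source of the sugar that Ugt enzymes transfer, gave 0 of 4 genes at either time with all 8 libraries. At ZT14 this changed without vriΔ679 ZT14 replicate 2, where more of all tested genes passed too.

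Relatives of the Gst family outside the symbol rule went the other way at ZT14, 3 of 5 lower and none higher. They were Clic, a chloride channel family protein with a transferase fold (45.0 and 50.01 FPKM against 24.9 and 29.7 FPKM), gfzf, a zinc finger protein with a transferase domain (18.3 and 22.4 against 8.23 and 11.5 FPKM), and se (sepia), an omega class enzyme of eye pigment synthesis (399 and 486 against 296 and 226 FPKM). Their log2 differences were -0.79, -1.02 and -0.77, with adjusted p of 0.0139, 0.0202 and 0.0291 (limma). Each failed without either wild type ZT14 library, se also without either wild type ZT2 library and gfzf without vriΔ679 ZT14 replicate 1 (up to 0.168).

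Regulators of detoxification genes gave 1 higher and 1 lower of 6 genes at ZT14. Cnc, the fly Nrf2 homologue that activates many Gst genes, was at 60.2 and 65.7 FPKM in wild type and at 48.0 and 38.9 FPKM in vriΔ679 (-0.54, SE 0.132, adjusted p = 0.0304, limma), and its partner maf-S at 92.8 and 99.0 against 218 and 135 FPKM (0.84, SE 0.214, adjusted p = 0.0339, limma). Both passed only when no library or 1 of the vriΔ679 ZT14 libraries was left out (up to 0.168). No regulator passed at ZT2.

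Among 8 phase I cytochrome P450 genes, whose products oxidise toxins before conjugation, 1 was lower and 1 higher at ZT14 and none at ZT2. Between ZT2 and ZT14, 2 of the 8 fell in wild type (0 without any 1 wild-type library) and 4 in vriΔ679 (0 to 2 in 7 of the 8 fits with a library left out), where 2.72% and 6.38% of all tested genes fell. Cyp6a2 was at 5.19 and 4.73 FPKM in wild type and at 2.82 and 2.78 FPKM in vriΔ679 (-0.72, SE 0.108, adjusted p = 0.00582, limma; 0.0511 without wild type ZT14 replicate 1). Cyp6a17 was at 51.0 and 53.3 FPKM against 101 and 71.0 FPKM (0.69, SE 0.192, adjusted p = 0.0430, limma) and passed otherwise only without vriΔ679 ZT14 replicate 2. Of 3 tested export transporters 1 was lower at ZT14, Mdr65 of the blood-brain barrier, at 32.5 and 38.9 FPKM against 21.4 and 21.1 FPKM (-0.73, SE 0.145, adjusted p = 0.0155, limma; 0.112 without wild type ZT14 replicate 2).

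Of 12 antioxidant enzymes 3 were lower and 1 higher at ZT14, and none passed at ZT2. The split depended on single libraries. More of the 12 were higher without vriΔ679 ZT14 replicate 2, where far more of all tested genes passed too. Fewer passed without wild type ZT14 replicate 2, as in all tested genes. Prx2540-2, a peroxiredoxin, was at 70.3 and 101 FPKM in wild type and at 31.3 and 25.2 FPKM in vriΔ679 (-1.57, SE 0.251, adjusted p = 0.00748, limma), and Prx2540-1, its near-identical copy, at 29.3 and 43.1 against 13.1 and 9.82 FPKM (-1.60, SE 0.296, adjusted p = 0.0124, limma). Reads of the 2 copies may be divided uncertainly, and both failed without wild type ZT14 replicate 2 (0.0568 and 0.0846). Extracellular Sod3 was at 119 and 122 FPKM against 92.6 and 70.8 FPKM (-0.57, SE 0.153, adjusted p = 0.0393, limma), a call that passed otherwise only without 1 of the vriΔ679 ZT14 libraries. The higher gene was Jafrac2, a peroxiredoxin named after its values were seen (0.52, SE 0.150, adjusted p = 0.0491, limma), which passed otherwise only without vriΔ679 ZT14 replicate 2.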

How the data were processed

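Poly(A) RNA of fly heads was sequenced in 8 libraries (75 nt single-end reads, 4 libraries per run, a directional kit, per the labels). Alignment and assembly tools are STAR (version 2.6.1d) and StringTie on build dm6, per the submitters' processing notes. For each library the authors deposited FPKM and a coverage signal for 35411 RefSeq transcripts. The coverage signal, per the file headers, was used here only for read depth. FPKM were summed per gene symbol, rescaled between libraries with median-of-ratios factors from 12078 genes, and genes at 1 FPKM or more in at least 2 libraries (10122) were fitted with limma 3.58.1 (R 4.3.3, statmod 1.5.0; eBayes with trend and robust) on log2(FPKM + 0.5), with 1 mean per group over all 8 libraries and Benjamini-Hochberg adjustment at 0.05 over all genes tested. These differences understate the change of low genes. Each comparison of 2 groups of 2 takes its error from the gene's own spread within all groups, moderated towards the trend over all genes. The fit was tested on simulated data.

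Genes named are all members called in any of 6 comparisons, the most abundant member of each class, and up to 3 genes of each pathway list that passed in a genotype comparison, by smallest p. The members and lists were chosen with earlier results of these data known. Values set beside 3 reads cover counting error only. Alternatives were filters, scalings, added values, model settings, replicate blocks and each library left out. Positions were compared with Ensembl BDGP6.54 for 52 genes, of which 50 had the same start and end. Of the 52 symbols, 17 differ from the current RefSeq symbol. Sequences were not used here.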

Additional observations from a re-analysis of the deposited data

Results flagged for a closer look

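In 5 genes the genotype difference departed between ZT2 and ZT14 by the interaction term of limma. GstE4 gave -3.59, GstS1 -1.80, GstD8 -1.39, GstD11 -1.12 and GstD5 2.47, on the log2 scale, as the ZT14 difference minus the ZT2 difference. GstE4, GstD8 and GstD11 were highest in both vriΔ679 ZT2 libraries, as were the antenna markers Orco and Obp28a, whose interactions were -2.27 and -3.41. These were the 2 of 6 antenna markers that passed. The interactions of Obp83b, Obp83a and lush were -2.38, -2.04 and -1.92 and that of Obp19d was 0.38. GstS1 was higher in the mutant at ZT2 without passing (log2 difference 0.57, adjusted p = 0.272, limma) and lower at ZT14, where the muscle marker Mhc was lower too (interaction -1.15). The part of antennal and muscle RNA in these values was not tested. GstD5 did not exceed 2.21 FPKM in any library, and its interaction was partly built into its passing the filter. No outlier within a group could be looked for, since groups hold 2 libraries.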

How the results depend on the processing

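No called difference of a Gst or Ugt gene changed sign under any alternative. The number of Gst and Ugt genes called was 1 to 7 for genotype at ZT2, 4 to 25 at ZT14, 2 to 16 for time in wild type, 2 to 17 for time in vriΔ679, 1 to 17 for genotype by time and 5 to 23 over both times when each library was left out in turn. Of 57 calls 13 passed in all 8 such fits and 44 failed in at least 1, with fewer samples in each fit. The number of all tested genes that passed also moved with the library left out, so changes in member counts there are not particular to these genes. Counts of members changed by over 1.5 times in these other settings. With only the 2 groups compared in the fit, 7 passed at ZT14 and 2 for time in vriΔ679. With a filter at 5 FPKM, which tests fewer genes, 2 passed for genotype by time and 9 over both times. Genotype by time gave 8 without rescaling, 9 with equal totals and 10 with crossed replicate numbers, and the cause was not tested. Time in vriΔ679 gave 10 when 18 more genes with a current Ugt symbol were counted as members. Added values of 0.1 and 1 FPKM, no filter, and eBayes without trend and robust gave counts within 1.5 times. With no filter other genes were among those counted, since GstD10, GstE6, GstT2, GstT4 and Ugt35a lost the call over both times and GstD5 and GstD11 that of genotype by time.

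Deviations of same-numbered libraries correlated only weakly, at -0.143 to 0.270. In these genes a shared replicate pattern was nevertheless seen. Replicate 1 was higher for 33 of the 39 in wild type at ZT2, 33 in vriΔ679 at ZT2 and 34 in vriΔ679 at ZT14, but for 9 in wild type at ZT14. Its source was not tested. With the replicate block the counts were 5, 18, 14, 7, 6 and 16, and with crossed numbers (chosen after the data were seen, since the 2 wild-type groups correlated at -0.143) 5, 23, 12, 9, 10 and 16, in the order of comparisons above. Precision is limited by 2 libraries a group, and for paralogs and low genes also by read assignment and depth, which were not compared.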

Other observations

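A further 18 genes carry a current RefSeq Ugt symbol under other deposited names, and 9 of them were tested. They were looked at after the data were seen. CG10178 (Ugt301D1) was lower in vriΔ679 at ZT14, at 28.4 and 33.6 FPKM in wild type against 16.6 and 14.0 FPKM (log2 difference -0.995, SE 0.137, adjusted p = 0.00435, limma), whichever library was left out. Its levels at ZT2 were 28.8 and 26.3 against 28.3 and 27.1 FPKM, and the interaction was -1.003 (adjusted p = 0.0268, limma, but 0.0552 to 0.12 without any 1 of the wild-type or vriΔ679 ZT2 libraries). CG17322 (Ugt36E1) fell in wild type from 21.7 and 18.1 FPKM at ZT2 to 10.4 and 8.84 FPKM at ZT14 (-1.01, SE 0.160, adjusted p = 0.0148, limma, failing without any 1 of the 4 wild-type libraries). In vriΔ679 it was at 16.9 and 13.8 FPKM at ZT2 and at 13.5 and 15.2 FPKM at ZT14. CG17322 was higher at ZT14 at an adjusted p of 0.0494 (limma), which no fit with a library left out repeated. CG10178, CG17324, CG30438 and CG4302 fell with time in vriΔ679 by 0.84, 0.64, 0.84 and 0.78 on the log2 scale (adjusted p 0.0156 to 0.0496, limma, each lost with some library left out), 4 of the 9 genes, where 6.38% of all tested genes fell.

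Within GstD9, the listed transcript differed between groups. In 6 libraries the FPKM lay on a transcript of 786 nt and none on one of 775 nt, while in both vriΔ679 ZT14 libraries 37.5 and 29.4 FPKM lay on the shorter one and 0.0271 and 0.00905 FPKM on the other. The same 6 libraries had 15.7 to 30.2 FPKM in all on the gene. The 2 transcripts share both ends, so the assembler's division of reads between them is uncertain. In GstS1, 41.7 and 43.2 FPKM of vriΔ679 at ZT2 lay on the transcript of 1402 nt, against 21.0 and 19.97 FPKM in wild type.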
